A study of Homo sapiens with 9 samples.

Results

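The 10 genes examined here are core members of the canonical WNT pathway, which acts through β-catenin. They are the secreted antagonist DKK1, the co-receptor LRP6, the destruction complex genes APC, AXIN1, AXIN2 and GSK3B, CTNNB1 itself (the gene of β-catenin), and the nuclear partners LEF1, TCF7 and TCF7L2. They were chosen by gene symbol, with earlier results of these data known, and all 10 were found among the 60966 genes of the tables. H1299, a cell line grown from a human non-small cell lung cancer, was profiled by RNA-seq 48 h after siRNA transfection. The 3 samples called Scramble received a scrambled siRNA (genotype label control), and 3 samples each received Si-FIBP#1 or Si-FIBP#2 (genotype label FIBP depleted), which target the mRNA of FIBP, the acidic FGF intracellular-binding protein. All 9 samples were thus transfected cells of 1 line, and no untransfected cells, drug treatment or irradiation entered the groups compared here. The study asked how the transcriptome changes when FIBP is depleted in lung adenocarcinoma cells.

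In the absence of a WNT signal, APC and AXIN hold β-catenin in a complex in which casein kinase 1 and GSK3 phosphorylate it, so that it is ubiquitinated and degraded. A WNT ligand bound to a Frizzled receptor and to LRP5 or LRP6 stops this, and β-catenin enters the nucleus and binds the TCF/LEF factors at target genes. DKK1 blocks the pathway by binding LRP5 and LRP6, and DKK1, AXIN2, LEF1 and TCF7 are themselves well-known β-catenin targets, so the pathway holds several feedback loops. CTNNB1 and APC are mutated in many cancers, and β-catenin also links cadherins to the cytoskeleton at cell junctions.

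FIBP mRNA was measured first, as the check of the knockdown. FIBP (ENSG00000172500) was at 88.38, 79.49 and 77.74 FPKM (fragments scaled by transcript length and sequencing depth, summed over the transcripts of a gene) with Scramble. It was at 7.49, 7.77 and 4.30 after Si-FIBP#1 and at 7.13, 5.92 and 8.21 after Si-FIBP#2. The depleted samples thus kept 7.96% and 8.66% of the Scramble mean. The log2 differences were -3.50 and -3.36, or -2.29 and -2.15 with 1 fixed length per gene in place of the lengths of its transcripts, a setting added after seeing the data. The difference between the siRNAs did not pass the test (log2 difference 0.13, 95% confidence interval -0.28 to 0.54, limma adjusted p = 0.686). The estimated depth was 19950000 to 23800000 fragments per sample, and samples of 1 group correlated across genes at 0.983 to 0.988, against 0.956 to 0.983 between groups. The 10 genes with the highest FPKM took 11.4% to 11.6% of all FPKM with Scramble. This share was 14.9% to 15.1% after Si-FIBP#1 and 12.9% to 13.4% after Si-FIBP#2, without overlap between the groups. The part of this difference in the results below was not tested. KRT8 and KRT18, keratins of simple epithelium, were present at 67.15 to 108.14 and 142.89 to 483.13 FPKM, whereas EPCAM and KRT19 stayed at or below 0.29 and the lung markers NKX2-1, SFTPB, SFTPC, SFTPA1, SCGB1A1 and FOXJ1 at or below 0.17 and NAPSA at or below 0.66. KRT18 had means of 476 FPKM with Scramble, 209 after Si-FIBP#1 and 175 after Si-FIBP#2, and the part of this in the results below was not tested. PTPRC and CD3E (leukocytes), PECAM1, CDH5, KDR and VWF (endothelium) and LUM and COL1A2 (fibroblasts) were at or below 0.27 FPKM in every sample. COL1A1 was at most 1.59, DCN at most 1.42 and CD14 at most 0.41, while CD68, which lysosomes of other cells also carry, was at 31.00 to 66.96 (means of 31.96 with Scramble, 38.7 after Si-FIBP#1 and 60.9 after Si-FIBP#2). COL1A1, a fibroblast collagen, had means of 0.077, 0.687 and 1.09 FPKM in the same order. The part of either in the results was not tested. In bulk RNA, fewer cells of a type and less RNA per cell cannot be told apart.

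In FIBP-depleted cells, 6 of the 9 tested members passed the test after Si-FIBP#1 and 8 after Si-FIBP#2, in tables in which 47.7% and 48.8% of all genes passed, and DKK1 was the 1 member called at over 2-fold. DKK1, LEF1 and TCF7 fell with both siRNAs, to 40.1% and 22.3%, 56.4% and 63.1%, and 51.1% and 52.8% of their Scramble means after Si-FIBP#1 and Si-FIBP#2, respectively. APC and GSK3B rose with both, AXIN1 fell slightly with both, LRP6 rose and CTNNB1 fell after Si-FIBP#2, and TCF7L2 passed the test in neither comparison. The calls of AXIN1 and LRP6 and that of APC after Si-FIBP#1 were each lost in 7 to 11 of 18 alternative settings. AXIN2 was under the filter on low values (at least 1 FPKM in at least 3 samples), and the other 9 members were at 1 FPKM or more in all 9 samples. Tests were made with limma on log2(FPKM + 1), so that fold changes of low genes are understated, with Benjamini-Hochberg adjustment over 14985 genes. A gene passed at an adjusted p below 0.05, and it was called differentially expressed where it also changed more than 2-fold.

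With Si-FIBP#1, 2 of the 9 tested members passed as higher and 4 as lower, whereas 47.7% of all tested genes passed. The corresponding counts after Si-FIBP#2 were 3 higher and 5 lower, against 48.8% of all genes. Passing was common in the whole table in both directions, at 27.8% higher and 19.9% lower after Si-FIBP#1 and 31.1% higher and 17.7% lower after Si-FIBP#2. Only DKK1 was differentially expressed among the members, in both comparisons, against 5.66% and 5.05% of all genes (3.11% and 2.13% in that direction). When single samples were compared, DKK1, LEF1, TCF7 and AXIN1 were lower in all 6 depleted samples than in every Scramble sample, as were 16.5% of all tested genes. APC and GSK3B were higher in all 6, as were 26.3% of all tested genes. Taking each siRNA alone, 3 tested members lay above and 4 below every Scramble sample after Si-FIBP#1, against 34.5% and 24.3% of all genes, and 2 lay above and 5 below after Si-FIBP#2, against 36.1% and 21.2%. The median log2 difference over the 9 members was -0.092 after Si-FIBP#1 and -0.16 after Si-FIBP#2, against 0.073 and 0.11 over all genes tested. The 2 comparisons share the 3 Scramble samples, so they are not independent of each other. Nothing in the labels says that the samples of a group came from separate cultures, so the p-values measure the spread between these samples, which may be technical.

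**Figure D1:**
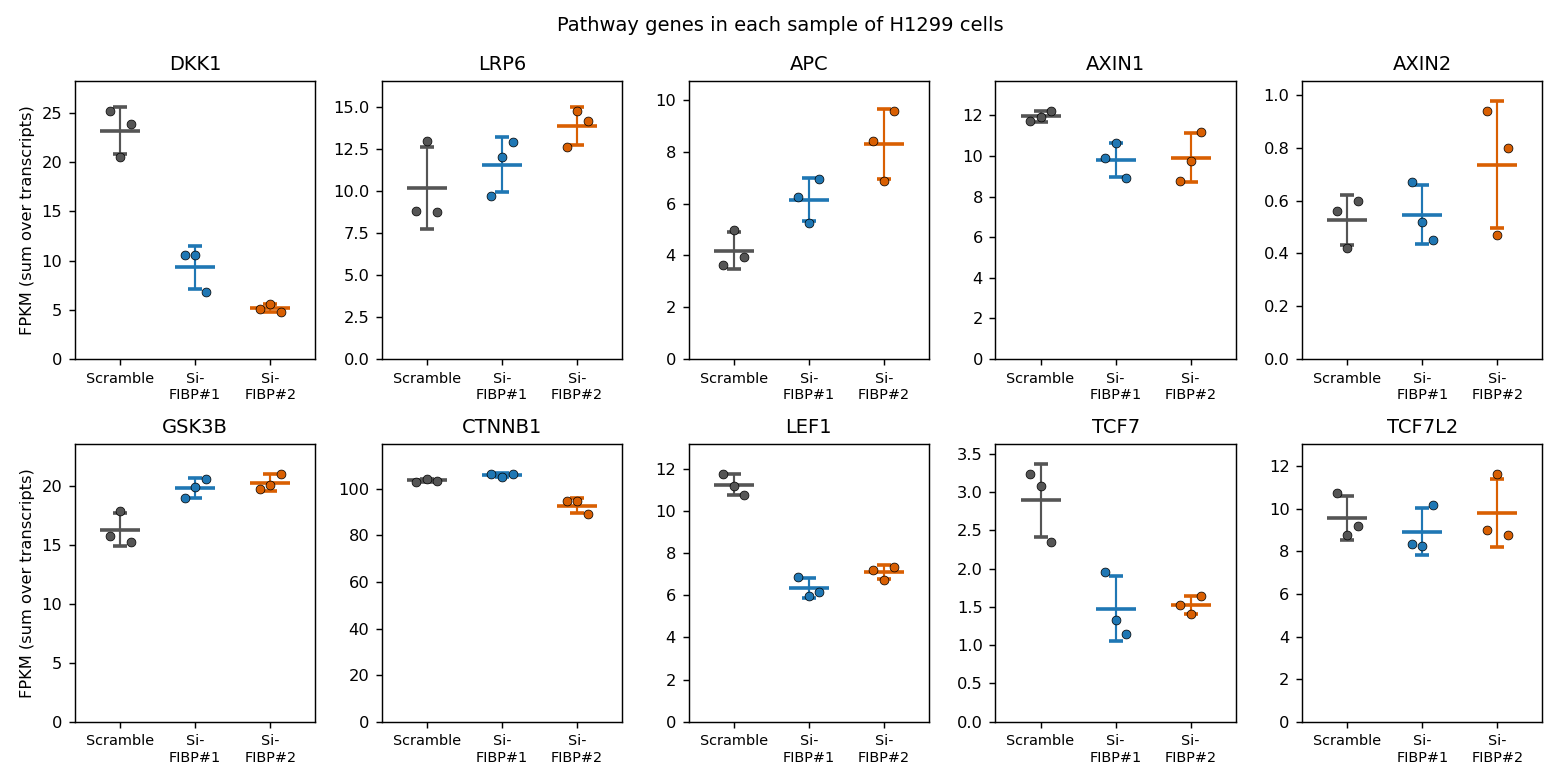
FPKM of the 10 pathway genes (vertical axes, each from 0, sum over transcripts) in the 3 samples of each group (points), with the mean (wide bar) and SD (error bar). DKK1, LEF1, TCF7 and AXIN1 lie below, and APC and GSK3B above, every Scramble sample in all 6 depleted samples, while LRP6, TCF7L2 and AXIN2 overlap.

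DKK1 (ENSG00000107984, chromosome 10, 52314296 to 52318042 on the plus strand in GENCODE release 29, GRCh38) encodes Dickkopf-1, which binds LRP6 and keeps it from WNT ligands. The genome build and annotation behind the deposited tables are not given in the sources used here, so coordinates are those of release 29 and were reached through Ensembl identifiers. DKK1 stood at 25.21, 20.53 and 23.84 FPKM with Scramble, at 10.54, 10.55 and 6.83 after Si-FIBP#1, and at 5.13, 5.63 and 4.78 after Si-FIBP#2. The 3 groups did not overlap, with the Si-FIBP#2 samples lowest. The log2 difference was -1.25 (SE 0.149, adjusted p = 0.000125 by limma) after Si-FIBP#1 and -1.97 (adjusted p = 8.87e-06) after Si-FIBP#2. The difference between the siRNAs, -0.72 (95% confidence interval -1.05 to -0.38), also passed (limma adjusted p = 0.0123). In all 18 alternative settings of scaling, filter, pseudocount, samples or transcripts, DKK1 remained more than 2-fold lower with both siRNAs and lower after Si-FIBP#2 than after Si-FIBP#1. The gene was supported by an estimated 85 to 596 fragments per sample.

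The single coding transcript of DKK1, DKK1-201 (ENST00000373970, 4 exons, 1805 nt), carried most of the signal. It was at 16.82, 16.24 and 15.88 FPKM with Scramble, at 6.73, 5.33 and 6.19 after Si-FIBP#1, and at 2.95, 3.47 and 2.35 after Si-FIBP#2. In Scramble and Si-FIBP#1 its replicates lay closer together than those of the gene sum, and its 3 groups were again separate. The short noncoding DKK1-202 (547 nt) was lower with both siRNAs without overlap, at means of 3.28, 0.833 and 0.587 FPKM. The other short noncoding transcripts, DKK1-203 and DKK1-204, overlapped between all groups, with 0 FPKM in some samples of 2 groups. PRKG1-AS1 lies on the opposite strand and shares 212 exonic bases with DKK1. It reached at most 2.43 FPKM, and since strand use is not given in the sources used here, reads of this stretch cannot be assigned to 1 of the 2 genes.

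The promoters of DKK1 and TCF7 are shown because both genes fell with both siRNAs and because a RefSeq start of each lies within 15 nt of the start of its main transcript. Each window holds 250 bases before the RefSeq start and 50 from it on (GRCh38.p14), written 5′ to 3′ in the sense of the gene. Capitals mark the TCF/LEF words searched on either strand, with CTTTGAA as the first form, CTTTGAT as the second, CTTTGTA as the third and CTTTGTT as the fourth. DKK1 spans chr10:52314031-52314330 (+), and TCF7 has an upstream window at chr5:134115363-134115662 (+) and a downstream one at chr5:134123368-134123667 (+).
DKK1: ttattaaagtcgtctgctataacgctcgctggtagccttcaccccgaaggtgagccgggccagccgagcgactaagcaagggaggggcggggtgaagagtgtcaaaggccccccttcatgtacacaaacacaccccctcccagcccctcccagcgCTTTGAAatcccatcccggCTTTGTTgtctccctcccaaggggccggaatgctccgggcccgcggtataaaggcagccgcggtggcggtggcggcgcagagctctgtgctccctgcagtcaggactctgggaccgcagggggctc
TCF7 upstream: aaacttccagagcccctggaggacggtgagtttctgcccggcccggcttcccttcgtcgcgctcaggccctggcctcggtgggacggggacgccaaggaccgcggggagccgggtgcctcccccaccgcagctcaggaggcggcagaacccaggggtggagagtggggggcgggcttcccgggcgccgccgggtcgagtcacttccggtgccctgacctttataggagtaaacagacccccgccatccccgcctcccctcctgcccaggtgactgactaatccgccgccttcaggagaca
TCF7 downstream: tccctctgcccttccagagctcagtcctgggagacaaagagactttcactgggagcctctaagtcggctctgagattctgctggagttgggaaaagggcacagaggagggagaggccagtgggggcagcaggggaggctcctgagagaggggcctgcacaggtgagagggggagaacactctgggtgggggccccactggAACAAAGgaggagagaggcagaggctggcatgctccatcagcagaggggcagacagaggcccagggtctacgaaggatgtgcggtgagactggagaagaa
The DKK1 window held 2 such words, CTTTGAA at -95 and CTTTGTT at -76 from the RefSeq start. TCF7 had none in its upstream window, and in the downstream window it had CTTTGTT on the minus strand at -50. In all, RefSeq windows were found for 8 of the 10 members (12 windows, none for AXIN2 and LRP6), and 3 of the 12 held a TCF/LEF word, against 13.8% of 35116 human windows. Of these 3, the TCF7 window lies 7993 nt and the TCF7L2 window 176181 nt from the start of the gene's main transcript. The STAT word TTCNNNGAA, searched because the study follows STAT3, occurred in 2 of the 12, against 7.66% of all. These were an APC window and the TCF7L2 window that also held a TCF/LEF word, without overlap of the words. That APC window lies 30390 nt from the start of the main coding transcript APC-201, and the APC window 3 nt from this start held no STAT word. A match is a description of the sequence and was not tested for binding.

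LRP6 (ENSG00000070018, chromosome 12, 12116025 to 12267012, minus strand), the co-receptor that DKK1 binds, was at 8.78, 12.99 and 8.76 FPKM with Scramble. It was at 9.72, 12.03 and 12.88 after Si-FIBP#1 and at 12.58, 14.76 and 14.17 after Si-FIBP#2. Scramble replicate 2 lay within the range of the depleted samples. Its fitted log2 difference was 0.18 (95% confidence interval -0.16 to 0.52, limma adjusted p = 0.355) after Si-FIBP#1 and 0.43 (0.090 to 0.76, adjusted p = 0.0397) after Si-FIBP#2. The high Scramble sample came from a short transcript, LRP6-202 (562 nt), which stood at 4.10 FPKM there and at 0.57 and 0.25 in the other Scramble samples. The full-length LRP6-201 (ENST00000261349, 23 exons, 10252 nt) was at 4.40, 4.89 and 5.10 with Scramble, 5.80, 5.45 and 6.08 after Si-FIBP#1, and 6.26, 7.18 and 6.15 after Si-FIBP#2. This transcript was higher in all 6 depleted samples than in every Scramble sample. The sum over transcripts is sensitive to short models such as LRP6-202, since few fragments on a short transcript give a high FPKM. When each gene was given 1 fixed length, a setting chosen after seeing the data, LRP6 passed in both comparisons, at 0.28 (limma adjusted p = 0.00478) and 0.46 (adjusted p = 0.000279). Without Scramble replicate 2 it passed after Si-FIBP#1 too (0.35, limma adjusted p = 0.0447). The call after Si-FIBP#2 was lost with median ratio scaling (0.29), without a filter, and in 5 of the 9 fits that left out 1 sample, namely Scramble replicates 1 and 3, Si-FIBP#1 replicate 2 and Si-FIBP#2 replicates 2 and 3, with log2 differences of 0.34 to 0.43 and adjusted p of 0.053 to 0.129.

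Of the destruction complex genes, APC and GSK3B rose with both siRNAs and AXIN1 fell with both. APC (ENSG00000134982, chromosome 5, 112707498 to 112846239, plus strand), the scaffold that brings β-catenin to the complex, had 3.62, 4.99 and 3.94 FPKM with Scramble, 6.26, 5.26 and 6.94 after Si-FIBP#1, and 8.43, 6.87 and 9.58 after Si-FIBP#2. All 6 depleted samples were above the Scramble samples, and the 2 depleted groups overlapped by 1 sample of each. In the fit, the log2 difference was 0.47 (SE 0.143, limma adjusted p = 0.0227) after Si-FIBP#1 and 0.84 (adjusted p = 0.00103) after Si-FIBP#2. The difference between the 2 siRNAs, 0.37 (95% confidence interval 0.053 to 0.69, limma adjusted p = 0.112), did not pass, but did without Si-FIBP#2 replicate 2 (0.49, adjusted p = 0.0462) and with 1 fixed length (0.24, adjusted p = 0.027). Much of the sum came from a short transcript here too. APC-205 (ENST00000505350, 573 nt, annotated as subject to nonsense-mediated decay) made up 17.9% of APC FPKM with Scramble, 28.3% after Si-FIBP#1 and 37.2% after Si-FIBP#2, and it was listed at 0 in 1 Scramble and 1 Si-FIBP#1 sample. The main coding transcript APC-201 (ENST00000257430, 16 exons, 10704 nt) was at 2.79, 2.58 and 2.29 with Scramble, 2.81, 2.18 and 2.91 after Si-FIBP#1, and 3.95, 3.63 and 3.87 after Si-FIBP#2. It was thus higher after Si-FIBP#2, without overlap, and overlapped Scramble after Si-FIBP#1. With 1 fixed length per gene, the APC differences shrank to 0.20 and 0.43 and still passed (limma adjusted p = 0.0262 and 0.000358). The Si-FIBP#1 call was lost with median ratio scaling, without a filter, with annotated transcripts only, and without any 1 of Scramble replicates 1 and 3 and Si-FIBP#1 replicates 1 and 3 (log2 differences 0.38 to 0.47, adjusted p 0.0591 to 0.0809).

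GSK3B (ENSG00000082701, chromosome 3, 119821323 to 120094417, minus strand), the kinase that marks β-catenin for degradation, was at 15.77, 17.91 and 15.23 FPKM with Scramble, at 18.95, 19.89 and 20.63 after Si-FIBP#1, and at 19.74, 20.11 and 21.07 after Si-FIBP#2. The depleted groups overlapped each other and lay above Scramble. By the fit, its log2 difference was 0.27 (limma adjusted p = 0.012) and 0.30 (adjusted p = 0.00653), respectively, and the siRNAs differed by 0.033 (95% confidence interval -0.13 to 0.19). GSK3B-201 (ENST00000264235, 11 exons, 7743 nt), the source of 71.2% to 74.1% of GSK3B FPKM in the group means, showed the same separation, with 11.94 to 12.23 FPKM in the Scramble samples and 13.8 to 15.56 in the depleted samples. Both calls were lost with median ratio scaling (0.17 and 0.16, adjusted p = 0.0848 and 0.106).

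AXIN1 (ENSG00000103126, chromosome 16, 287440 to 352673, minus strand), the scaffold whose amount limits the complex, stood at 11.71, 11.94 and 12.23 FPKM with Scramble, 9.89, 10.62 and 8.93 after Si-FIBP#1, and 8.78, 9.77 and 11.19 after Si-FIBP#2. All 6 depleted samples were below Scramble, which varied little. The log2 difference was -0.26 (limma adjusted p = 0.0419) and -0.25 (adjusted p = 0.0478), close to the threshold. These calls were not stable. The first was kept in 10 and the second in 7 of the 18 alternative settings, with adjusted p up to 0.136 and 0.156, and median ratio scaling moved the second to -0.39. Leaving out any Scramble sample, Si-FIBP#1 replicate 1 or Si-FIBP#1 replicate 3 ended the first, and any Scramble sample, Si-FIBP#1 replicates 1 or 2, or Si-FIBP#2 replicates 1 or 2 ended the second. AXIN1-202 (ENST00000354866, 10 exons, 3324 nt), which held 74.0% to 79.5% of the FPKM in the group means, was at 8.77 to 8.95 in the Scramble samples and at 7.13 to 8.5 in the depleted samples.

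AXIN2 (ENSG00000168646, chromosome 17, 65528563 to 65561647, minus strand), a feedback inhibitor often used as a readout of β-catenin activity, was hardly expressed. It had 0.56, 0.42 and 0.60 FPKM with Scramble, 0.67, 0.52 and 0.45 after Si-FIBP#1, and 0.94, 0.47 and 0.80 after Si-FIBP#2, from an estimated 31 to 56 fragments per sample. The 3 groups overlapped. Fitted without a filter, the log2 difference was 0.018 (95% confidence interval -0.26 to 0.30, limma adjusted p = 0.996) after Si-FIBP#1 and 0.18 (-0.10 to 0.46, adjusted p = 0.405) after Si-FIBP#2, and a difference was not detectable at this level.

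CTNNB1 (ENSG00000168036, chromosome 3, 41194741 to 41260096, plus strand) was the most abundant member, at 103.02, 104.22 and 103.39 FPKM with Scramble. It was at 106.51, 104.85 and 106.45 after Si-FIBP#1 and at 94.52, 94.63 and 89.15 after Si-FIBP#2. These groups did not overlap, although their means were within 89.6% to 102% of Scramble. Its log2 difference against Scramble was 0.033 (SE 0.0418, 95% confidence interval -0.061 to 0.13, limma adjusted p = 0.55) after Si-FIBP#1, a direction that turned with TPM and with median ratio scaling. With Si-FIBP#2 it was -0.16 (-0.25 to -0.064, adjusted p = 0.0113), or -0.31 with median ratio scaling. The siRNAs differed by -0.19 (-0.28 to -0.096, limma adjusted p = 0.0154). This call was lost on the TPM scale (adjusted p = 0.0508), in a fit of the 2 groups alone (0.0518) and without Si-FIBP#2 replicate 3 (0.0659), with log2 differences of -0.19 to -0.15. CTNNB1 had 57 transcripts in the tables. Of the 31 with a mean of at least 1 FPKM, 23 overlapped between Si-FIBP#1 and Scramble and 27 between Si-FIBP#2 and Scramble. The others were 4 higher and 4 lower after Si-FIBP#1, and 4 lower after Si-FIBP#2. Of all 41011 transcripts with such a mean, 22.2% were higher and 19.6% lower without overlap after Si-FIBP#1, and 22.2% and 17.2% after Si-FIBP#2. CTNNB1-202 was lower with both siRNAs without overlap, at a mean of 11.1 FPKM with Scramble, 8.53 after Si-FIBP#1 and 7.58 after Si-FIBP#2. CTNNB1-203 was at 9.23, 11.8 and 9.69 FPKM, and its Si-FIBP#1 samples lay above every Scramble sample.

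LEF1 and TCF7, which carry β-catenin at target genes, fell with both siRNAs, and TCF7L2 did not pass the test. LEF1 (ENSG00000138795, chromosome 4, 108047545 to 108168956, minus strand) was at 11.78, 11.17 and 10.78 FPKM with Scramble, at 6.89, 5.96 and 6.17 after Si-FIBP#1, and at 7.21, 6.74 and 7.35 after Si-FIBP#2. The lowest Scramble sample was well above the highest depleted sample. The log2 difference was -0.74 (SE 0.0777, limma adjusted p = 5.57e-05) after Si-FIBP#1 and -0.60 (adjusted p = 0.000213) after Si-FIBP#2. The siRNAs differed by 0.14 (95% confidence interval -0.031 to 0.32, limma adjusted p = 0.254). Both calls were kept in all 18 alternative settings, at -0.83 to -0.70 and -0.73 to -0.56. Its leading coding transcript LEF1-203 (ENST00000438313, 11 exons, 1488 nt) went from 3.50, 3.39 and 3.06 FPKM to 1.49, 1.29 and 1.58 after Si-FIBP#1 and to 2.08, 2.19 and 2.45 after Si-FIBP#2. Here the 3 groups were separate, after Si-FIBP#1 lowest, which the gene sum did not show. LEF1 transcripts with an annotated start within 2000 nt of the outermost start made up 55.2% ± 7.39 of LEF1 FPKM with Scramble (SD, n = 3), 53.3% ± 8.74 after Si-FIBP#1 and 53.3% ± 6.79 after Si-FIBP#2. The FPKM summed over each kind of start was lower in all depleted samples, but this did not hold for each transcript. The noncoding LEF1-205 was at 1.95, 2.68 and 1.88 FPKM with Scramble and 1.59, 1.76 and 0.67 after Si-FIBP#1. After Si-FIBP#2 it was at 2.23, 2.31 and 1.86 and overlapped Scramble. LEF1-206 overlapped Scramble with both siRNAs and LEF1-211 after Si-FIBP#1, while the coding LEF1-201 was lower with both. LEF1-AS1, on the opposite strand, shares 279 exonic bases with LEF1 and reached at most 0.60 FPKM.

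TCF7 (ENSG00000081059, chromosome 5, 134114711 to 134151865, plus strand), which encodes TCF-1, was at 3.24, 3.08 and 2.35 FPKM with Scramble, at 1.95, 1.33 and 1.15 after Si-FIBP#1, and at 1.53, 1.41 and 1.64 after Si-FIBP#2. All depleted samples were below the lowest Scramble sample, and the depleted groups overlapped. Against Scramble, the log2 difference was -0.66 (SE 0.15, limma adjusted p = 0.00534) after Si-FIBP#1 and -0.62 (adjusted p = 0.00725) after Si-FIBP#2. TCF7 rested on an estimated 57 to 153 fragments per sample. It was not tested with a filter of 5 FPKM, and passed in the other 17 alternatives in both comparisons. TCF7-203 (ENST00000395023, 9 exons, 2815 nt) was at 1.63, 1.88 and 1.76 FPKM with Scramble, 0.76, 0.64 and 0.53 after Si-FIBP#1, and 1.22, 0.77 and 0.99 after Si-FIBP#2. The longer TCF7-201 (ENST00000342854, 3288 nt) was at 0.53, 0.42 and 0.44, then 0.25, 0.19 and 0.22, then 0.07, 0.07 and 0.08, respectively. The 2 transcripts thus stood in opposite order between the siRNAs, with TCF7-203 lowest after Si-FIBP#1 and TCF7-201 lowest after Si-FIBP#2. The TCF7-203 groups nearly met (0.76 against 0.77), and TCF7-201 was very low in every sample. How few reads were split between overlapping transcripts was not tested, so nothing is read from this order. Transcripts that start within 2000 nt of the outermost TCF7 start, where the upstream promoter window lies, made up 95.1% ± 8.55 of TCF7 FPKM with Scramble, 93.0% ± 3.06 after Si-FIBP#1 and 91.1% ± 8.54 after Si-FIBP#2 (SD, n = 3). The 3′ end of TCF7 shares 210 exonic bases with SKP1 on the opposite strand, a gene at 384.89 to 468.73 FPKM, but the 1 TCF7 transcript that reaches SKP1 was listed at 0 in all 9 samples.

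TCF7L2 (ENSG00000148737, chromosome 10, 112950250 to 113167678, plus strand), which encodes TCF-4, had 10.73, 8.75 and 9.21 FPKM with Scramble, 8.35, 8.23 and 10.18 after Si-FIBP#1, and 9.0, 11.65 and 8.77 after Si-FIBP#2. The groups overlapped. The fitted log2 difference was -0.092 (95% confidence interval -0.37 to 0.19, limma adjusted p = 0.574) after Si-FIBP#1 and 0.027 (-0.25 to 0.31, adjusted p = 0.876) after Si-FIBP#2, and its direction turned with median ratio scaling in the second. Its largest transcript, TCF7L2-210, was at 2.17, 1.96 and 1.83 FPKM with Scramble, 1.79, 2.55 and 1.64 after Si-FIBP#1, and 1.43, 1.39 and 1.42 after Si-FIBP#2, where it lay below all other samples. The make-up of the gene from 33 transcripts otherwise varied between replicates. Transcripts that start far downstream of the outermost start gave 0.30, 5.24 and 1.56 FPKM in the Si-FIBP#2 samples.

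**Figure D2:**
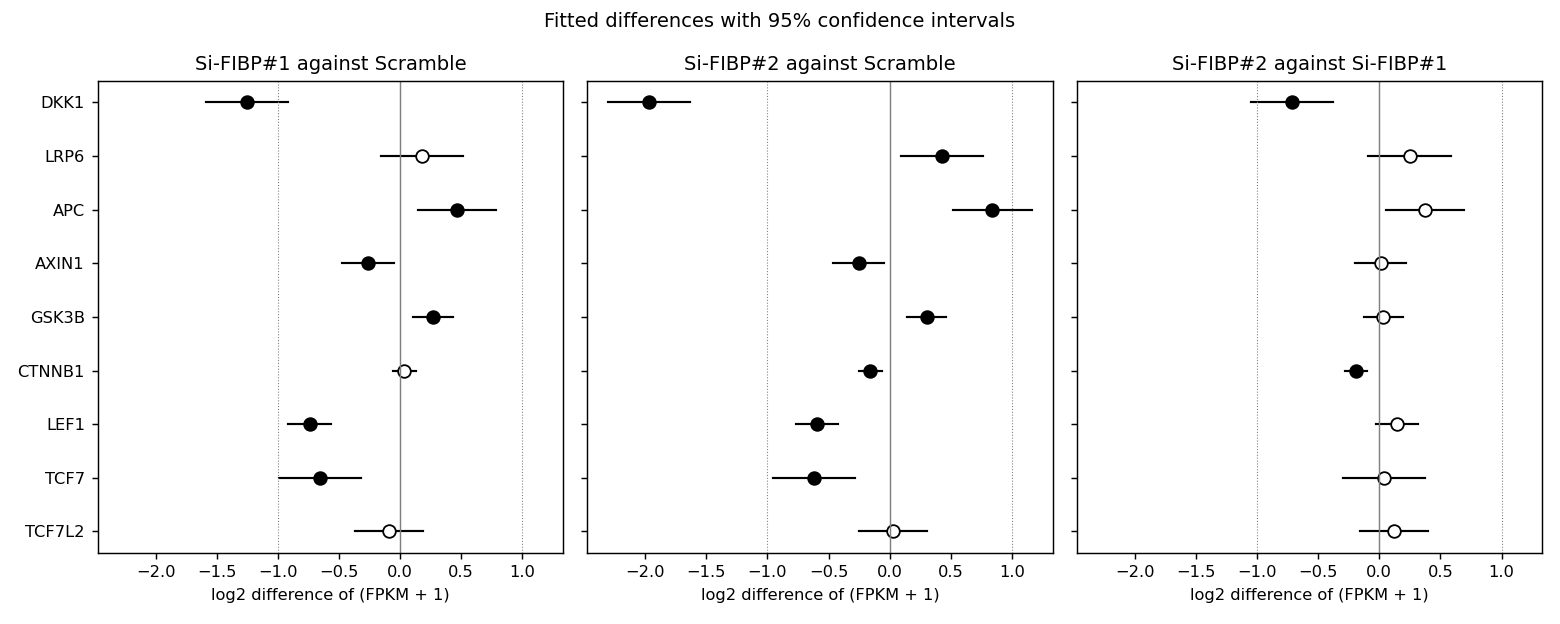
Fitted log2 differences of (FPKM + 1) for the 9 tested members (horizontal axes) in the 3 comparisons, with 95% confidence intervals. Filled points passed at an adjusted p below 0.05, and dotted lines mark a 2-fold change, which only DKK1 exceeds (-1.25 and -1.97). The direction of CTNNB1 after Si-FIBP#1 and of TCF7L2 after Si-FIBP#2 turned with other scalings.

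As LEF1 and TCF7 fell and TCF7L2 did not pass, the relative amounts of the TCF/LEF genes differed between the groups. TCF7L1, the fourth gene of the family and often a repressor, is added here after its values were seen. It was at 1.24, 0.77 and 0.92 FPKM with Scramble, 2.09, 1.44 and 1.98 after Si-FIBP#1, and 2.11, 2.26 and 2.08 after Si-FIBP#2. All depleted samples were above Scramble, with log2 differences of 0.52 (limma adjusted p = 0.012) and 0.68 (adjusted p = 0.00296), or 0.85 and 1.09 with a pseudocount of 0.1. TCF7L1 reached 1 FPKM in 1 Scramble sample and in all 6 depleted ones, so it entered the test only through the groups in which it is high. Of the FPKM summed over the 4 genes, LEF1 took 45.7% ± 1.78 with Scramble, 34.2% ± 2.19 after Si-FIBP#1 and 34.6% ± 3.56 after Si-FIBP#2 (SD, n = 3). TCF7 took 11.7% ± 1.45, 7.95% ± 2.11 and 7.46% ± 0.962, and TCF7L1 took 3.93% ± 0.678, 9.83% ± 1.21 and 10.5% ± 0.194. TCF7L2 accounted for 38.7% ± 1.66 with Scramble and for 48% ± 4.5 and 47.5% ± 4.68 with the siRNAs. LEF1 thus had the most FPKM of the 4 genes in all 3 Scramble samples, and TCF7L2 in all 6 depleted samples. In LEF1 this includes the noncoding LEF1-205, LEF1-206 and LEF1-211, which held 19.3%, 13.0% and 12.2% of its Scramble FPKM, so the order is one of gene sums and not of coding transcripts. The sum itself was 24.7 FPKM ± 2.02 with Scramble, 18.6 ± 1.40 after Si-FIBP#1 and 20.6 ± 1.28 after Si-FIBP#2. These shares are a description, with no test, and TCF7L2 FPKM includes the variable transcripts described above.

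In the order of their Scramble levels (FPKM, which is per length), CTNNB1 (104) was followed by DKK1 (23.2), GSK3B (16.3), AXIN1 (11.96), LEF1 (11.2), LRP6 (10.2), TCF7L2 (9.56), APC (4.18), TCF7 (2.89) and AXIN2 (0.527). Neighbours from AXIN1 to TCF7L2 overlapped between samples, and all others were separate. DKK1 was the only member that was differentially expressed, and the genes whose log2 levels over the 9 samples were most like it were DDX39B (Pearson r = 0.991), ZNF207 (0.987) and MAGEA3 (0.987). They have means of 260, 88.3 and 106.17 FPKM with Scramble and 193.38, 64.4 and 76.93 after Si-FIBP#2. The r is a description over 9 samples that fall into 3 groups, and MAGEA3 shares reads with near-identical MAGEA genes, so its level is uncertain.

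Between the siRNAs, 2 of the 9 tested members passed, both lower after Si-FIBP#2, against 15.4% of all genes (5.8% in that direction). These were DKK1 and CTNNB1, whose Si-FIBP#2 samples also lay below every Si-FIBP#1 sample, as they did for 12.5% of all genes. No member differed more than 2-fold between the siRNAs, as did 0.561% of all genes. For LEF1, TCF7, AXIN1, GSK3B, LRP6, TCF7L2 and APC the intervals of the difference all lay within -0.29 and 0.69, which does not show that the siRNAs acted alike on them.

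Scaling moved the small differences. Among the genes that passed, 58.4% were higher after Si-FIBP#1 and 63.7% after Si-FIBP#2, but only 45.2% and 43.6% were with median ratio scaling, under which the median of all genes shifted from 0.073 to -0.016 and from 0.11 to -0.018. Relative to the median of all genes tested, DKK1 was at -1.32 and -2.08, LEF1 at -0.81 and -0.71, TCF7 at -0.73 and -0.73, AXIN1 at -0.34 and -0.36, GSK3B at 0.20 and 0.19, APC at 0.39 and 0.73, LRP6 at 0.11 and 0.32, CTNNB1 at -0.041 and -0.27, and TCF7L2 at -0.17 and -0.083 after Si-FIBP#1 and Si-FIBP#2, respectively.

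The rest of the pathway was described with 7 lists of 125 genes, of which 73 were tested and 52 were under the filter. With Si-FIBP#1, 20 of these passed as higher and 17 as lower (50.7%, against 47.7% of all genes), and after Si-FIBP#2 25 passed as higher and 19 as lower (60.3%, against 48.8%). Of those higher, 4 after Si-FIBP#1 (DKKL1, NKD2, ROR1 and TCF7L1) and 6 after Si-FIBP#2 (AMER1, DKKL1, FZD4, FZD9, NKD2 and TCF7L1) reached 1 FPKM in fewer than 3 Scramble samples and so entered the test only through depleted samples, and nothing is read from these shares. The median log2 difference was 0.080 and 0.11, beside 0.073 and 0.11 for all genes. Over 2-fold, ROR1 was higher and WNT5B, BIRC5 and CCN1 were lower after Si-FIBP#1, and CCN1 and ID2 were lower after Si-FIBP#2. ROR1 kept this call in 12 of the 14 alternatives that tested it, ID2 in 17 of 18, and the others in all 18. CCND1, named after its values were seen, was at 49.6% of its Scramble mean FPKM after Si-FIBP#1. It just missed the 2-fold threshold (-0.9999, limma adjusted p = 4.2e-05).

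Few WNT ligands were expressed, as 5 of the 21 genes for ligands and their release were tested. With each siRNA 1 passed as higher and 2 as lower (60.0%, beside 47.7% and 48.8% of all genes). WNT5B, a ligand mostly of noncanonical signalling, was at 16.01, 14.71 and 14.80 FPKM with Scramble, 6.46, 6.76 and 6.77 after Si-FIBP#1, and 7.29, 7.71 and 8.10 after Si-FIBP#2. It fell with both siRNAs, without overlap (log2 differences -1.08 and -0.89, limma adjusted p = 3.15e-06 and 1.04e-05). WLS, the carrier that brings WNT proteins to the cell surface, rose from 110.47, 107.90 and 110.73 FPKM to 135.85, 142.19 and 145.99 after Si-FIBP#1 and 150.63, 147.68 and 153.13 after Si-FIBP#2 (0.36 and 0.45, limma adjusted p = 0.000113 and 3.09e-05). Of the ligand genes, WNT3 was the other that fell after Si-FIBP#1 (-0.44, limma adjusted p = 0.0172) and WNT16 the other that fell after Si-FIBP#2 (-0.54, adjusted p = 0.0397, with overlap), both named after their values were seen. WNT3 did not pass after Si-FIBP#2 (-0.30, limma adjusted p = 0.0764), although these samples too lay below every Scramble sample.

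Among receptors and genes of receptor turnover, 11 of 20 were tested, with 2 higher and 2 lower after Si-FIBP#1 and 4 higher and 3 lower after Si-FIBP#2 (36.4% and 63.6% of those tested, against 47.7% and 48.8% of all genes). FZD4 and FZD9, named after their values were seen, are 2 of the 4 higher after Si-FIBP#2 and entered the test only through depleted samples. FZD1 and ZNRF3, also added after their values were seen, were lower in all 6 depleted samples than in every Scramble sample. The same held for 16.5% of all tested genes. FZD1 had means of 5.90, 3.20 and 3.66 FPKM with Scramble, Si-FIBP#1 and Si-FIBP#2, and ZNRF3 had 2.14, 1.49 and 1.54. LRP5, the sister of LRP6, rose from 13.65 to 20.2 and 17.2 FPKM on average (log2 differences 0.53 and 0.31, limma adjusted p = 0.00281 and 0.0374). The second call was lost in 6 of 18 alternatives. Among them were median ratio scaling (0.17, limma adjusted p = 0.208) and the fits without Scramble replicate 2 or 3 and without Si-FIBP#2 replicate 2 or 3 (0.23 to 0.32). ROR1, a receptor of noncanonical WNT ligands, was at 0.64, 0.57 and 0.87 FPKM with Scramble and at 2.57, 2.29 and 2.63 after Si-FIBP#1, where it rose (1.05, adjusted p = 0.000119). It was at 0.80, 0.95 and 0.93 after Si-FIBP#2, and the difference between the siRNAs passed (-0.88, limma adjusted p = 0.0022). ROR1 entered the test only through its level after Si-FIBP#1. RYK, another such receptor, fell after Si-FIBP#2 (-0.34, limma adjusted p = 0.00946), while after Si-FIBP#1 its difference was -0.14 (adjusted p = 0.221).

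Of 14 other secreted inhibitors and their co-receptors, 3 were tested, and 3 rose after Si-FIBP#1 and 2 after Si-FIBP#2, where 27.8% and 31.1% of all genes passed as higher. DKK3, a relative of DKK1 that does not bind LRP6 in the same way, rose from 28.1 to 37.39 and 41.1 FPKM on average (log2 differences 0.40 and 0.53, limma adjusted p = 0.0126 and 0.00305). After Si-FIBP#1 the call was lost with annotated transcripts only (0.25, adjusted p = 0.147), and the difference was 0.20 with 1 fixed length. KREMEN1, a co-receptor of DKK1, rose after Si-FIBP#1 (0.45, limma adjusted p = 0.00769) and was at 0.28 after Si-FIBP#2 (adjusted p = 0.0549), a difference that passed without Scramble replicate 3 or Si-FIBP#2 replicate 1 (0.35 and 0.37) and with 1 fixed length (0.36). The third, DKKL1, named after its values were seen, rose with both (0.56 and 0.74, limma adjusted p = 0.0267 and 0.00734), but only 2 Scramble samples reached 1 FPKM, so it entered the test only through the depleted groups.

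In the cytoplasm, 19 of 21 further relay and destruction complex genes were tested, with 6 higher and 4 lower after Si-FIBP#1 and 9 higher and 4 lower after Si-FIBP#2 (52.6% and 68.4%, against 47.7% and 48.8% of all genes). NKD2, among the higher with both, and AMER1, higher after Si-FIBP#2, both named after their values were seen, entered the test only through the depleted groups. CSNK1A1, the casein kinase that primes β-catenin for GSK3, was at 121.88, 128.75 and 127 FPKM on average and passed in neither comparison (0.080 and 0.061, limma adjusted p = 0.223 and 0.348). PPP2CA, a catalytic subunit of protein phosphatase 2A, was at 123.15, 125.57 and 109.88 FPKM with Scramble, 68.41, 78.28 and 68.00 after Si-FIBP#1, and 99.28, 113.07 and 97.46 after Si-FIBP#2. It fell after Si-FIBP#1 (-0.73, limma adjusted p = 7.68e-05), was at -0.21 after Si-FIBP#2 (adjusted p = 0.0556, but past the threshold in 7 of 18 alternatives), and differed between the siRNAs (0.52, adjusted p = 0.00333). BTRC and DVL1 are added after their values were seen. BTRC rose from 6.46 to 9.79 and 10.4 FPKM on average (0.53 and 0.61, limma adjusted p = 0.000249 and 0.000111). DVL1 was at 55.2, 37.4 and 42.9 FPKM on average with Scramble, Si-FIBP#1 and Si-FIBP#2. In all 6 depleted samples BTRC was above and DVL1 below every Scramble sample, as were 26.3% and 16.5% of all tested genes.

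Among 18 nuclear partners, 17 were tested, with 4 higher and 2 lower after Si-FIBP#1 and 4 higher and 3 lower after Si-FIBP#2 (35.3% and 41.2%, beside 47.7% and 48.8% of all genes). TCF7L1, with the limit given above, is 1 of the 4 higher in both. The most abundant, the corepressor CTBP1 and the β-catenin inhibitor CTNNBIP1, did not pass. CTBP1 had log2 differences of 0.11 and 0.13 (limma adjusted p = 0.24 and 0.169), and CTNNBIP1 had -0.24 and 0.11 (adjusted p = 0.207 and 0.581). Without Si-FIBP#2 replicate 2 both CTNNBIP1 differences passed (-0.24 and 0.32, limma adjusted p = 0.0142 and 0.00834), and the first also with only the 2 groups compared (adjusted p = 0.0235).

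Of 20 genes described as β-catenin targets in one tissue or another, 9 were under the filter, at or below 0.27 FPKM in every Scramble sample. These were SP5, MYCN, MMP7, TNFRSF19, ASCL2, EPHB3, BAMBI, NRCAM and L1CAM, of which SP5 reached 2.1 FPKM in Si-FIBP#1 replicate 1. The other 11 were tested. With Si-FIBP#1, 5 passed as lower and 1 as higher, and after Si-FIBP#2 6 passed as lower and 3 as higher. Of all genes, 19.9% and 17.7% passed as lower and 27.8% and 31.1% as higher. The median log2 difference was -0.31 and -0.40, beside 0.073 and 0.11 for all genes. The list was chosen with earlier results of these data known, so these counts and medians are a description and nothing is read from them. CCN1, a matricellular protein that is also a target of YAP, was at 130.47, 117.20 and 118.33 FPKM with Scramble, 55.43, 54.60 and 54.57 after Si-FIBP#1, and 33.60, 45.31 and 35.82 after Si-FIBP#2 (log2 differences -1.14 and -1.66, limma adjusted p = 1.54e-05 and 2.15e-06). BIRC5 (survivin), which is also expressed with the cell cycle, fell from 59.80, 59.39 and 56.75 to 20.46, 18.73 and 23.70 and to 37.57, 34.81 and 41.48 (-1.45 and -0.62, limma adjusted p = 2.44e-06 and 0.000404). FOSL1, a subunit of AP-1, fell from 277.31 to 173 and 192 FPKM on average (-0.68 and -0.53, limma adjusted p = 2.71e-05 and 0.000127). ID2, an inhibitor of bHLH factors, fell from 9.17 to 3.70 FPKM after Si-FIBP#2 (-1.11, limma adjusted p = 0.000989) and was at 6.78 after Si-FIBP#1 (-0.41, adjusted p = 0.0964), where it passed without replicate 1 (-0.64) and with median ratio scaling (-0.50). CD44, the most abundant, was at 314, 343 and 340 FPKM on average and passed in neither comparison (0.13 and 0.11, limma adjusted p = 0.163 and 0.213), but passed in both without Si-FIBP#2 replicate 2 (0.13 and 0.20). The remaining tested targets, added after their values were seen, are given as means in the order Scramble, Si-FIBP#1 and Si-FIBP#2. CCND1 was at 114, 56.4 and 83.4 FPKM, SOX9 at 30.28, 28.3 and 22.8, and EPHB2 at 1.41, 1.22 and 1.88. JUN was at 24.37, 19.5 and 30.0, VEGFA at 20.0, 27.0 and 25.1, and PPARD at 5.87, 6.38 and 7.98. Between the siRNAs, 4 of the 11 passed as higher and 3 as lower after Si-FIBP#2, against 15.4% of all genes in either direction. BIRC5 was higher there (0.83, limma adjusted p = 0.000673), and CCN1 (-0.52, adjusted p = 0.0077) and ID2 (-0.69, adjusted p = 0.0353) were lower, so these targets did not order the 2 siRNAs in 1 way. The ID2 difference was lost in 6 of 18 alternatives, among them the fits without Si-FIBP#1 replicate 1 or without any 1 Si-FIBP#2 sample (-0.77 to -0.47).

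Of 11 junction genes that bind β-catenin or act beside it, 7 were tested, with 3 higher and 2 lower after Si-FIBP#1 and 2 higher and 1 lower after Si-FIBP#2 (71.4% and 42.9%, against 47.7% and 48.8% of all genes). VCL, vinculin, fell from 86.29 to 64.4 and 56.4 FPKM on average (log2 differences -0.42 and -0.61, limma adjusted p = 0.000212 and 2.26e-05). CTNNA1, α-catenin, which ties β-catenin to actin, fell after Si-FIBP#1 (-0.23, limma adjusted p = 0.0134) and was at 0.015 after Si-FIBP#2 (adjusted p = 0.867). Added after its values were seen, the cadherin gene CDH2 had means of 13.3, 17.3 and 18.3 FPKM with Scramble, Si-FIBP#1 and Si-FIBP#2. It rose with both siRNAs (log2 differences 0.35 and 0.43, limma adjusted p = 0.00138 and 0.000426). JUP, added likewise, was at 1.60, 2.48 and 3.17 FPKM in the same order. Both genes were higher in all 6 depleted samples than in every Scramble sample, as were 26.3% of all tested genes.

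**Figure D3:**
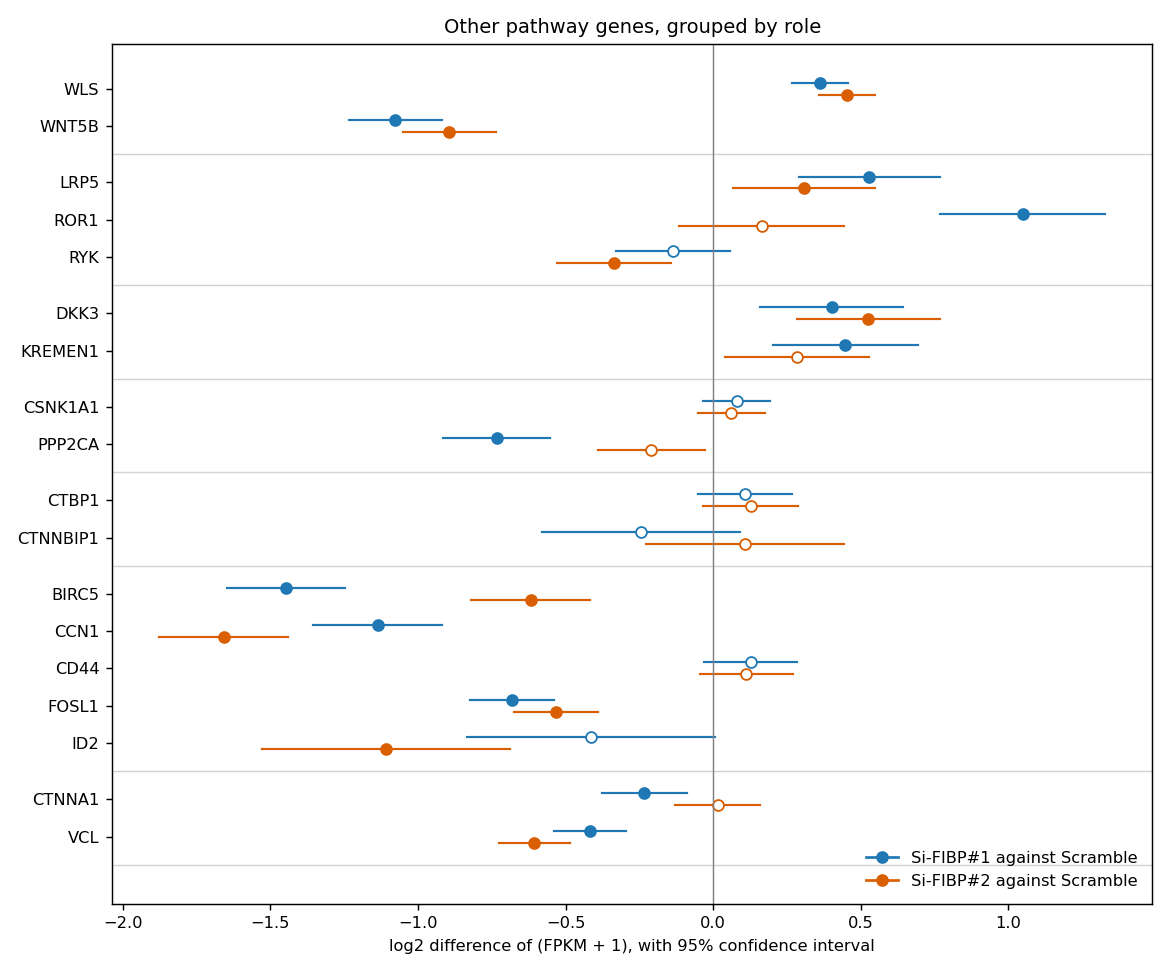
Log2 differences of (FPKM + 1) against Scramble (horizontal axis) with 95% confidence intervals for 18 further pathway genes, for Si-FIBP#1 and Si-FIBP#2, filled where the adjusted p was below 0.05. From the top, the groups are ligands and release, receptors, secreted inhibitors, cytoplasmic relay, nuclear partners, β-catenin targets and junction partners. WNT5B, CCN1, BIRC5, FOSL1 and VCL are lower and WLS, LRP5 and DKK3 are higher with both siRNAs.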

How the data were processed

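Poly(A)-selected RNA from 9 samples of H1299 cells had been sequenced from both ends. FPKM per transcript, rounded to 2 decimals, were deposited by the authors in a separate table for each sample, and 14956 of the 244443 transcripts were models assembled from these reads. The unit FPKM was read from the values. HISAT2 and StringTie are named in the submitters' processing notes, while versions, genome build, annotation and strand setting are not given in the sources used here.

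FPKM were summed per gene. The 14985 genes that reached 1 FPKM in 3 or more samples were fitted together with limma 3.58.1 in R 4.3.3 (mean-variance trend) on log2(FPKM + 1), with Benjamini-Hochberg adjustment. Depth was estimated from the FPKM steps of 8100 single-transcript genes of 800 to 2000 nt, and FPKM carry no counting interval. Passing required an adjusted p below 0.05, and differential expression also a change over 2-fold, as in the study's methods. Fits were also run on simulated data. There far fewer genes changed than passed here, in 1 group only and with no shift of scale between samples. The simulation therefore cannot check the calls made here. The pathway lists were fixed by role, and the named genes were the members, FIBP, list genes differentially expressed in any comparison, and the 2 with the highest mean FPKM per list. Transcripts described are those with at least 10% of a gene's FPKM in a group mean. The members and lists were chosen with earlier results of these data known. Alternatives were other scalings, pseudocount, filters, samples, transcripts, a replicate block and leaving out each sample. Sequences came from RefSeq windows (GRCh38.p14) and coordinates from GENCODE release 29 (GRCh38). Python 3.11.15 was used with pandas 2.3.3, numpy 2.4.6 and matplotlib 3.10.9.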

Additional observations from a re-analysis of the deposited data

Results flagged for a closer look

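2 of the 9 tested members responded differently to the 2 siRNAs by the limma test of the difference itself, with Si-FIBP#2 compared with Si-FIBP#1, against 15.4% of all genes. DKK1 was lower after Si-FIBP#2, at a log2 value of -0.72 relative to Si-FIBP#1 (adjusted p = 0.0123), with no overlap between the groups. It was so in all 18 alternative settings, at -0.90 to -0.62. CTNNB1 was lower by -0.19 (adjusted p = 0.0154), also with no overlap, and passed in 15 of the 18.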

How the results depend on the processing

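Each count and each gene named by the rule was recomputed on the TPM scale, with median ratio scaling, with a pseudocount of 0.1, without a filter, with a filter of 5 FPKM, with only the 2 groups compared, with annotated transcripts only, with a replicate block, without each sample in turn and, added after seeing the data, with 1 fixed length per gene. WNT3, WNT16, DKKL1, CCND1, CDH2 and BTRC were not recomputed. No count-based test was run, because the tables hold no counts. Of the values for members, 426 kept direction and side of the threshold, 38 lost the call, 4 gained one and 15 turned, none of which was a call. Of those for FIBP and the other named genes, 785 kept both, 34 lost a call, 18 gained one and 12 turned. DKK1, LEF1, FIBP and, where tested, TCF7 kept their calls against Scramble in every setting. With 1 fixed length, FIBP was at -2.29 and -2.15 against Scramble, in place of -3.50 and -3.36. With a pseudocount of 0.1, the differentially expressed genes rose from 848 to 1498, 757 to 1411 and 84 to 172 in the 3 comparisons, and the members among them stayed at 1, 1 and 0.

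Between the siRNAs, the count of members that passed was 1 on the TPM scale and with only the 2 groups compared, and 1 to 3 when 1 sample was left out. There the lists gave 9 to 17 genes and all genes 1268 to 2821 (2304 with all samples), or 3611 with 1 fixed length. The lowest of these came without Si-FIBP#2 replicate 3, and 1354, 1357 and 1476 without Si-FIBP#1 replicates 2 and 1 and Si-FIBP#2 replicate 1.

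Uncalled differences that turned were as follows. With median ratio scaling, CTNNB1 and CSNK1A1 after Si-FIBP#1 were at -0.069 and -0.022. After Si-FIBP#2, TCF7L2 was at -0.11, CD44 at -0.037, CSNK1A1 at -0.088, CTBP1 at -0.022, CTNNA1 at -0.13 and CTNNBIP1 at -0.038, and between the siRNAs AXIN1 was at -0.033 and GSK3B at -0.012. On the TPM scale, CTNNB1 after Si-FIBP#1 was at -0.013. With annotated transcripts only, TCF7L2 was at 0.061, -0.032 and -0.093 in the 3 comparisons and CTNNBIP1 after Si-FIBP#2 at -0.30. With 1 fixed length, TCF7L2 after Si-FIBP#2 was at -0.056, CD44 at -0.051 and -0.054, and AXIN1 between the siRNAs at -0.0087. When 1 sample was left out, the difference between the siRNAs ranged from -0.072 to 0.087 for AXIN1, from -0.054 to 0.17 for TCF7 and from -0.10 to 0.26 for FIBP, and that after Si-FIBP#2 from -0.091 to 0.11 for TCF7L2, from -0.038 to 0.044 for CTNNA1 and from -0.00023 to 0.32 for CTNNBIP1. The causes were not tested.

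The replicate numbers were not used as pairs in the main fit, and the correlations given next do not decide whether they mark pairs. Deviations of same-numbered samples correlated at -0.057 to 0.103, those of other numbers at -0.142 to 0.049, and 2 of 9 samples were closest to their own number in both other groups. With the replicate number as a block, 7081, 7287 and 2177 genes passed in the 3 comparisons, against 7146, 7309 and 2304. AXIN1 no longer passed (adjusted p = 0.0587 and 0.0653). AXIN2, TCF7 and ROR1 give no value where a filter leaves them out. FPKM carry no counts, so depth limits the low genes AXIN2 and TCF7 most.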
